A study of Caenorhabditis elegans with 2 samples.

Results

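Basement membrane genes encode the sheet of extracellular matrix that lies under epithelia and around muscle in Caenorhabditis elegans. The members here are the type IV collagen genes let-2 and emb-9, the perlecan gene unc-52, the laminin genes epi-1, lam-1, lam-2 and lam-3, the nidogen gene nid-1 and the type XVIII collagen gene cle-1. They are 9 of the 19973 protein-coding genes on the nuclear chromosomes, and they were chosen by protein family with the peak positions and signals of these data already known. The regions come from the authors' lists for the RUNX-type transcription factor RNT-1, and each has a summit, the position of highest signal. A region was assigned to a member when its summit lay between 2 kb upstream of the gene and its 3' end. That gave 12 of the authors' 5560 peaks and 75 of the 30000 regions in the pooled candidate list. The candidate list is labelled as holding background as well as peaks, so a candidate is not by itself a bound region.

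The assay was chromatin immunoprecipitation followed by sequencing, with an antibody against green fluorescent protein (GFP). Both samples came from whole L1 hermaphrodites of strain OP462 (unc-119(tm4063) III; wgIs462), collected 6 h after synchronization as starved larvae. The strain stably expresses RNT-1 with a GFP-FLAG tag at its C terminus, so both samples carry the tagged protein and the unc-119 allele. There are 2 biological replicates in 1 group, and a control library was not analysed here. Whole animals were used, so the signal averages over all tissues, and strong binding in few cells cannot be told apart from weak binding in many. The sources used here name no promoter for the fusion.

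Basement membranes are built on networks of type IV collagen and of laminin. In the nematode, EMB-9 and LET-2 are the chains of the type IV collagen trimer, and body wall muscle is a major source of it. Laminin is a trimer of an alpha chain, EPI-1 or LAM-3, with the beta chain LAM-1 and the gamma chain LAM-2. Perlecan, encoded by unc-52, lies between body wall muscle and epidermis and is needed to anchor the contractile apparatus. Nidogen and type XVIII collagen associate with these networks and are known for roles in nerve and synapse organization.

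Tagged RNT-1 was found at the collagen IV chains, perlecan and part of the laminin genes, and the largest number of peaks was at let-2. A peak here is a region of the authors' list set by the irreproducible discovery rate (IDR), and these 5560 had the highest signals among the pooled candidates. Peaks numbered 6 at let-2, 2 each at epi-1 and lam-1, and 1 each at emb-9 and unc-52. None was assigned to lam-2, lam-3, nid-1 or cle-1. Signal is the authors' own value on a scale the sources do not name, and read depth is unknown, since no reads are listed. Positions are on ce11, and distances are in bp from the gene start along the gene, with negative values upstream.

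The sequences below show the 101 bases centred on 5 of the 12 summits, read from the plus strand of the ce11 reference, which is opposite to the strand of these 3 genes. They were chosen because they hold a RUNX form or the E-box within 50 bp of the summit or, for emb-9, because its peak had the highest signal of the 12. Capitals mark the RUNX forms TGTGGT and TGCGGT and the E-box CAGCTG, a sequence bound by MyoD-type factors.
let-2 at -1402, X:16390692-16390792: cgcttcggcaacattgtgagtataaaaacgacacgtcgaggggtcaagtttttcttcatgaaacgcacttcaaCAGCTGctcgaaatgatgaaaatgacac
let-2 at 777, X:16388513-16388613: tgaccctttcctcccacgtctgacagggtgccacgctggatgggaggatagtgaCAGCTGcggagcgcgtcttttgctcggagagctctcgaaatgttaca
let-2 at 1964, X:16387326-16387426: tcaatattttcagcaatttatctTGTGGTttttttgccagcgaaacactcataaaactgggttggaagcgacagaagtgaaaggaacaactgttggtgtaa
unc-52 at 14114, II:14670292-14670392: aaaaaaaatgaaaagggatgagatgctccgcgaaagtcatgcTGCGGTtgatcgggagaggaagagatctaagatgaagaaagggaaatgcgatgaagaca
emb-9 at -1860, III:9346257-9346357: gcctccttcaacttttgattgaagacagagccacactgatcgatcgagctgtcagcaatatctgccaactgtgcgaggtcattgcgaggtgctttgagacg

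The first question is how many of the members hold a peak compared with other genes. Peaks were assigned to 5 of the 9 members. By the same rule 4864 of 19973 protein-coding genes had a peak (24.4%). A longer interval can hold more summits, and the members are long, with intervals from 9115 bp at nid-1 to 39136 bp at unc-52. Among the 1846 genes with an interval of at least 9115 bp, 777 had a peak (42.1%). The members' 5 of 9 is therefore set beside 42.1% and not only 24.4%, and with 9 genes chosen with results known no test was made. Per length, the members' intervals held 85.5 peaks per Mb, against 56.7 over all protein-coding intervals. This order rests on let-2, which holds 6 of the 12 peaks at 558 per Mb: without it the other members held 46.3 per Mb, below the 56.7 of all intervals. At unc-52 the value was 25.6 per Mb.

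**Figure D1:**
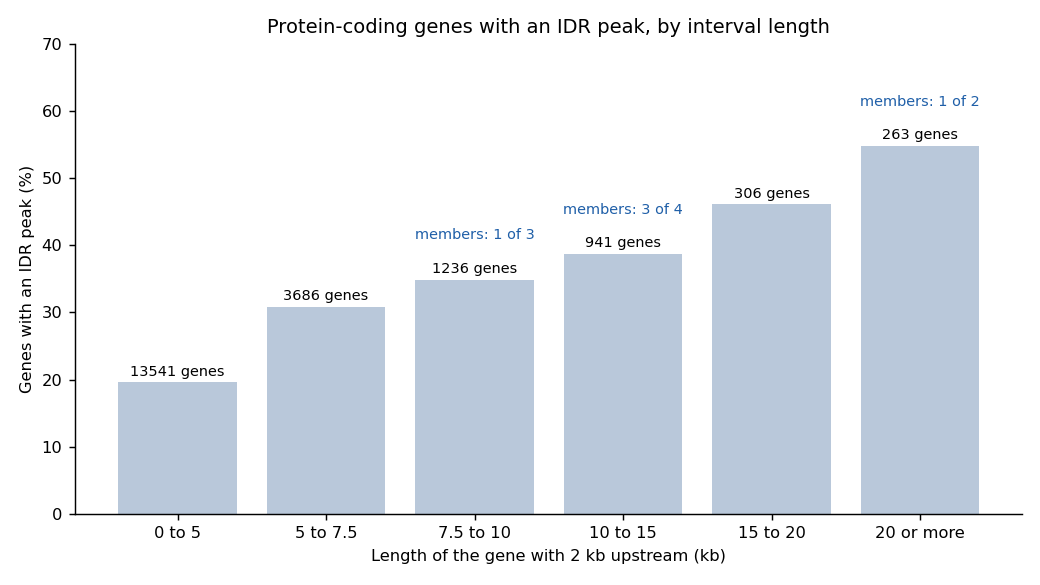
Share of protein-coding genes with at least 1 IDR peak (bars, percent) by the length of the gene with 2 kb upstream, with the number of genes and, in blue, the members with a peak. The share goes from 19.6% under 5 kb to 54.8% at 20 kb or more, and the members' counts are 1 of 3, 3 of 4 and 1 of 2 in their classes.

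The gene let-2 (WBGene00002280, X:16380597-16389340, minus strand) had peaks on both sides of its start. Their summits lay at -1402, -813 and -141 upstream and at 777, 1288 and 1964 within the gene, in introns 3, 4 and 5 of the 17 introns of transcript F01G12.5a.1. Neighbouring summits were 511 to 918 bp apart, and the 6 spanned 3366 bp. Having at least 6 peaks was rare, at 28 of 19973 genes (0.14%) and 24 of the 1846 with long intervals (1.3%). The cutoff of 6 is the count of let-2 itself, the highest among the members, so these shares are a description only.

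The 6 let-2 peaks were of similar signal. The strongest, at -141, had a pooled signal of 222, with 67 in replicate 1 and 151 in replicate 2 (109 ± 59.4, SD, n = 2). The peak at 1964 had 199, with 119 in replicate 1 and 80.3 in replicate 2 (99.8 ± 27.5). The peak at -813 had 199, with 81.6 and 125 (103 ± 30.6). These 3 peaks did not keep their order between libraries: the peak at 1964 was the highest of the 6 in replicate 1, and the peak at -141 was the highest in replicate 2.

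The other let-2 peaks differed less between libraries. At 777 the pooled signal was 194, with 97.5 in replicate 1 and 108 in replicate 2 (103 ± 7.19, SD, n = 2). At -1402 it was 156, with 84.3 and 67.6 (75.9 ± 11.8). At 1288 it was 154, with 96 and 67.4 (81.7 ± 20.2). All 6 ranked within the first 5560 in both libraries, with ranks from 2221 to 3855 in replicate 1 and from 1357 to 3413 in replicate 2. Beyond intron 5 the signal was lower: the 5 further candidates at let-2, from 3209 to 7001, lay in coding sequence with pooled signals from 27.5 to 47.8.

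**Figure D2:**
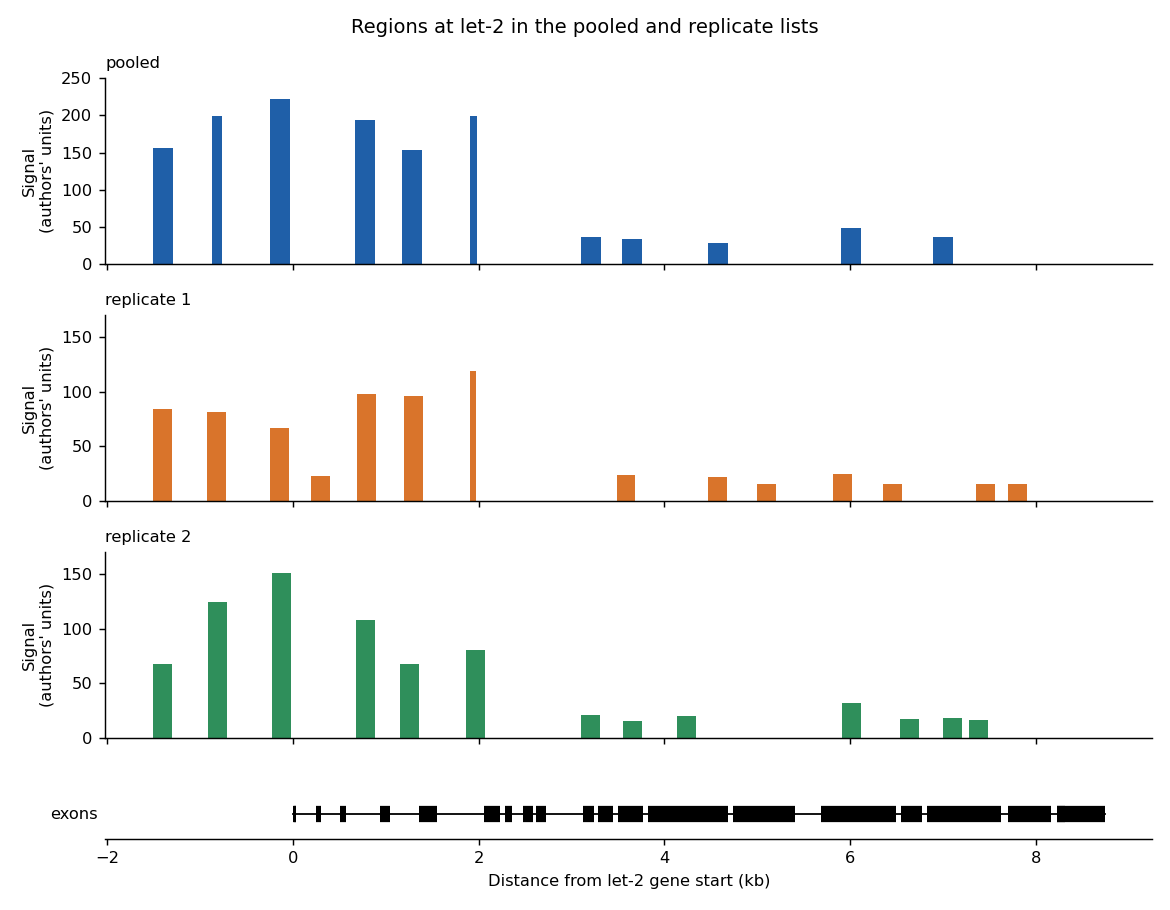
Regions at let-2 in the pooled list and in each replicate's list, as bars from region start to region end with the authors' signal as height, above the exons of let-2 (x axis in kb from the gene start). The 6 peaks between -1402 and 1964, and their matching regions in each replicate, stand above the regions further into the gene. Their pooled signals were 154 to 222, against at most 47.8. A further region of replicate 1 in that span, at 297, had only 22.8.

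Short noncoding RNA genes are annotated among these peaks. F01G12.14 and F01G12.16 hold the summit at 1288, and F01G12.17 holds the summit at 777. The other 4 let-2 summits lie in no other annotated gene. The nearest protein-coding start was that of let-2 for all 6. The peaks of let-2 also went on beyond the 2 kb limit, with summits at -2018 (pooled signal 115, replicates 44.9 and 63.1) and -2985 (337, replicates 190 and 143). The latter was stronger than any of the 12 assigned peaks, and let-2 was still the gene with the nearest protein-coding start.

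At emb-9 (WBGene00001263, III:9336881-9344447, minus strand), the other type IV collagen chain, the pattern had another layout. Its only peak, III:9346199-9346414, lay far upstream at -1860 and had the highest signal of the 12, 234, at rank 2021 of 5560. Replicate 1 gave 79.8 and replicate 2 gave 149 (115 ± 49.2, SD, n = 2), so replicate 2 was 1.87 times as high. It was the assigned summit nearest to the 2 kb limit, and the let-2 peak at -2018 was the nearest outside it. A further peak at -2510 (162, replicates 111 and 83.5) also had emb-9 as the gene with the nearest start. Close to the start itself, the candidate at -592 had a pooled signal of 26.8 and no matching region in replicate 1, and the 6 candidates within the gene, all in coding sequence, had 29.6 to 49.4. Peaks within introns were thus seen at let-2 and not at emb-9.

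The perlecan gene unc-52 (WBGene00006787, II:14647321-14684456, minus strand) is the longest of the 9 and had a single peak deep within it. The summit lay at 14114, in intron 11 of transcript ZC101.2d.1, which is 8781 bp long. The pooled signal was 142, with 77.8 in replicate 1 and 65.4 in replicate 2 (71.6 ± 8.73, SD, n = 2), and the replicate summits fell within 2 bp of the pooled summit. Internal starts follow this intron: 12 of the 16 annotated protein-coding transcripts begin between 17513 and 17604, and the peak lay at -3399 from the nearest of these starts. The RUNX form TGCGGT shown above had its centre at -5.5 bp from the summit on the plus strand.

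No peak lay close to an annotated start of unc-52. The candidate at -189 had a pooled signal of 44.4, with 30.4 in replicate 2 and no matching region in replicate 1. The candidate at 17318, which is at -195 from an internal start, had 27.5 and matched no region in either replicate. The candidate at 30269, which is 38 bp past a further internal start, had 48.4, with 36.2 in replicate 1 and no match in replicate 2. Of the 22 candidates below the threshold at unc-52, 11 were in introns and 10 in coding sequence. The highest, in coding sequence at 35683, ranked 5563 with a signal of 71.5, 3 ranks below the last peak kept, and had 25 in replicate 1 and 40.6 in replicate 2. It was the strongest region of any member left outside the list. The weakest member peak inside the list was the epi-1 peak at -163 with 82.3. At unc-52 the next highest candidate, in intron 14 at 19093, had a pooled signal of 56.9. It had 48.8 in replicate 2, at rank 4402, and no match in replicate 1.

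Among the laminin genes, peaks were assigned to an alpha chain and to the beta chain. At epi-1 (WBGene00001328, IV:10666823-10679291, plus strand), an alpha chain gene, the peak at -974 had a pooled signal of 173, with 58.6 in replicate 1 and 111 in replicate 2 (84.7 ± 37, SD, n = 2). The second epi-1 peak, at -163, had 82.3, with 43.6 and 39.3 (41.5 ± 3.02), and was the weakest of the 12. The upstream gene K08C7.7 ends within 500 bp of the summit at -974, on the same strand. The gene with the nearest start was epi-1 for both.

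At lam-1 (WBGene00002247, IV:5173332-5183746, plus strand), the beta chain of every laminin trimer in this animal, the peak at -1004 had a pooled signal of 114. The replicates gave 62.3 and 60.2 (61.2 ± 1.47, SD, n = 2), the closest agreement of the 12. The peak at 326, in intron 1 of transcript W03F8.5a.1, had 101, with 64.9 in replicate 1 and 36.2 in replicate 2 (50.6 ± 20.3). That peak ranked 5929 in replicate 2 and was the only one of the 12 outside the 5560 strongest regions of a replicate. The lam-1 signals were lower than those of let-2 in the pooled list, at 101 and 114 against 154 to 222. Several piRNA genes, which are short noncoding RNA genes, lie within 500 bp of the summit at -1004. The piRNA gene 21ur-7956 lies within 500 bp of that at 326. None of them holds a summit, and the nearest protein-coding start was that of lam-1 for both peaks.

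The gamma chain gene lam-2 (WBGene00016913, X:7143846-7151239, minus strand) and the second alpha chain gene lam-3 (WBGene00002248, I:10608466-10621435, plus strand) had no peak. The 2 candidates of lam-2 both lay upstream, at -1155 with a pooled signal of 44.2 and at -415 with 28.3. Each matched a region in replicate 1 (15.2 and 34.5) and none in replicate 2. At lam-3 all 8 candidates were in coding sequence, with the strongest at 5066 (41.2, replicates 18.3 and 16.6) and none upstream. Each list ends at 30000 regions, so a stretch without a candidate may still have had signal. A peak at -2435 from lam-2 (236, replicates 148 and 80.4) lay closer to the start of C54D1.7.

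The nidogen gene nid-1 (WBGene00003738, V:12910107-12917221, plus strand) and the type XVIII collagen gene cle-1 (WBGene00000527, I:8705668-8724279, minus strand) also had no peak. The strongest nid-1 candidate, at -852 with 45.3, had a summit that no region of either replicate contained. The strongest replicate 1 region of nid-1 had its own summit at -955 and a signal of 38.1. At cle-1 the strongest of 3 candidates lay in coding sequence at 2819, with 39.4, 36.1 in replicate 1 and no match in replicate 2. Over the 4 genes without a peak the highest pooled signal was 45.3, below the 71.6 of the weakest peak in the list.

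**Figure D3:**
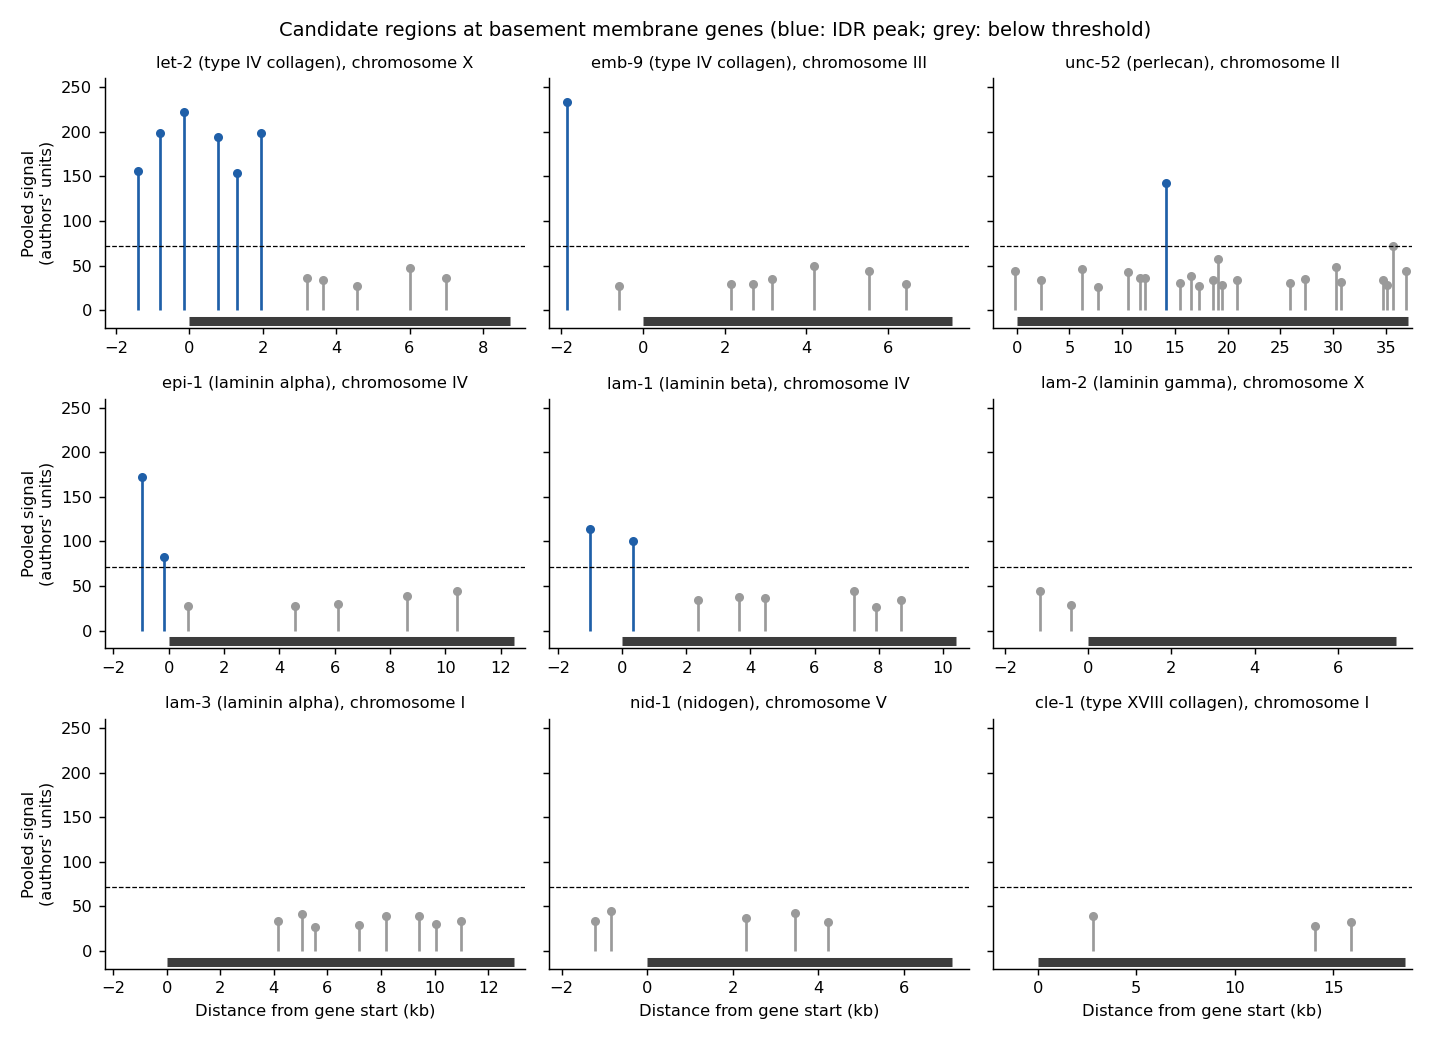
Pooled signal (authors' units) of every candidate region at each of the 9 genes against distance from the gene start in kb, with IDR peaks in blue, regions below the threshold in grey, the lowest signal in the IDR list as a dashed line and the gene as a dark bar. The 6 peaks of let-2 cluster around its start, the peak of unc-52 stands alone at 14114 bp, and the regions of lam-2, lam-3, nid-1 and cle-1 all lie below the line.

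Peaks lay upstream or in introns, and most of the weaker candidates lay in coding sequence. Of the 12 peaks, 7 were upstream and 5 in introns, and none was in coding sequence, which makes up 44.9% of the members' intervals. Of the 63 candidates below the threshold, 45 (71.4%) were in coding sequence, 12 in introns and 6 upstream. Within intron 11 of unc-52, the peak and 6 weaker candidates lay together. Introns make up 38.9% and upstream sequence 12.8% of these intervals. By the same rule, coding sequence held 2.53% of the peaks and 37.8% of the weaker candidates at the 1846 genes with long intervals, so few peaks in coding sequence is the general pattern. There introns held 57.9% of the peaks and upstream sequence 35.7%, with each summit counted once for each gene it was assigned to. Median GC content within 50 bp of the summit was 45% for the 12 peaks, 43.6% for the 63 weaker candidates and 46.5% for all 5560 peaks. The candidates below the threshold had a median signal of 33.9, and 11 of 63 (17.5%) matched a region in both replicates, against 23.0% of all 24440 such regions.

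The next question is how well the replicates agree at the members. All 12 peaks had a matching region in both replicates, a region that contains the pooled summit, as had 5282 of all 5560 (95%). The 12 ranged from 43.6 to 119 in replicate 1 (median 78.8) and from 36.2 to 151 in replicate 2 (median 73.9), so the ranges overlap. Pooled signals ran from 82.3 to 234 with a median of 164, near the 174 of all peaks, and their ranks ran from 2021 to 4974. Their signals were thus in the middle of the list, and none ranked above 2021.

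The agreement of the replicates varied among the 12 peaks. The median coefficient of variation was 26.2% over the 12. It was 19.2% over the 2824 matched of the 2954 peaks within the same range of signal, and 15.6% over the 5282 matched of all 5560 peaks. Peaks without a match in both replicates have no coefficient and are left out. The coefficient was above both of these wider medians at 7 of the 12 and below both at 5. Replicate 2 exceeded replicate 1 by more than 1.5 times at 4 of the 12: let-2 at -141 (2.25 times), epi-1 at -974 (1.89), emb-9 at -1860 (1.87) and let-2 at -813 (1.53). Over matched peaks within the same range of signal, 237 of 2824 (8.39%) did so. The opposite difference was seen at lam-1 at 326, where replicate 2 was 0.558 times replicate 1, and in 23.7% of those 2824. The median ratio of replicate 2 to replicate 1 was 0.934 over the 12 and 0.895 over all matched peaks. With 2 replicates these differences have no test, and the 4 peaks were singled out after their values were seen.

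**Figure D4:**
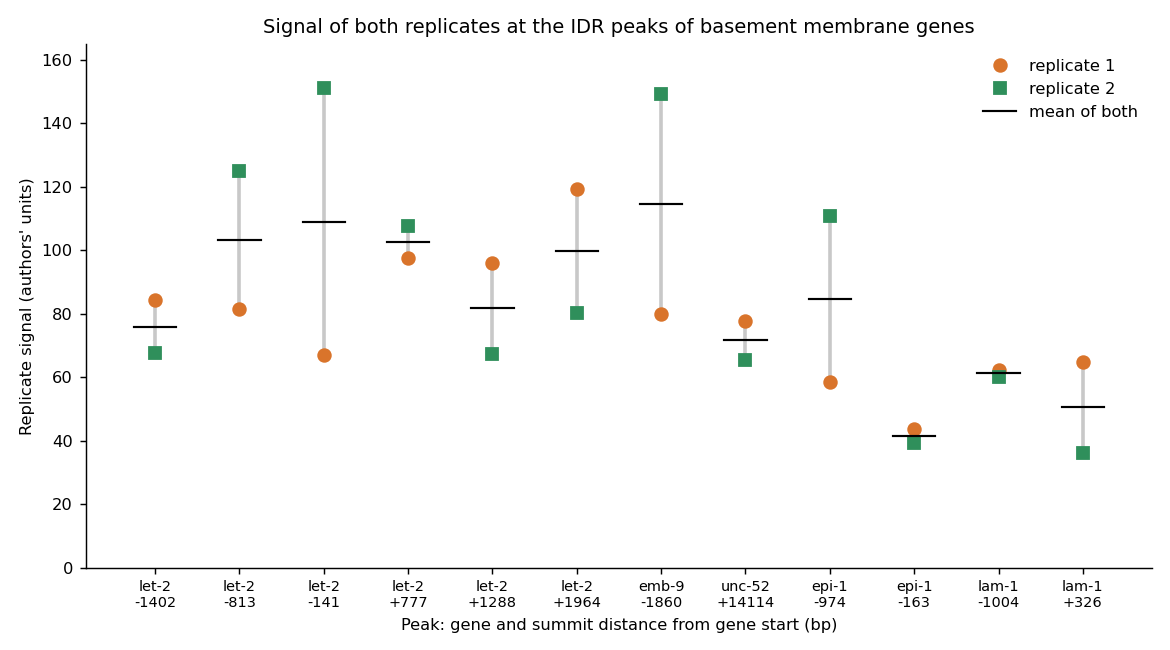
Signal in replicate 1 (orange circles) and replicate 2 (green squares) at the 12 IDR peaks, in the authors' units, with the mean of both as a black line; labels give the gene and the distance of the summit from its start in bp. Replicate 2 is highest at let-2 -141 and emb-9 -1860 (151 and 149, against 67 and 79.8 in replicate 1), and the replicates nearly coincide at lam-1 -1004.

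Few of the summits held a RUNX form. Within 50 bp of the summit, on either strand, TGTGGT occurred at 1 of the 12 peaks (let-2 at 1964, centre -24.5 bp from the summit) and at 5.76% of all 5560 peaks. TGCGGT occurred at 1 of 12 (unc-52) and at 4.6% of all peaks. Either form was thus found at 2 of 12 (16.7%), against 10.1% of all peaks and 7.06% of the 24440 regions below the threshold. At the remaining 10, including the strongest peak at emb-9, these letters were not in the window. The TGTGGT near the let-2 summit at 1964 lies only partly inside that peak, which is 77 bp wide. Over whole peaks either form was at 2 of 12 (16.7%), against 15.8% of all peaks, so there the shares were close. The TGTGGT counted there is in the let-2 peak at -1402, with its centre 74.5 bp from the summit.

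The E-box CAGCTG, which reads the same on both strands, occurred at 2 of 12 peaks (16.7%) and 5.97% of all peaks. Both were at let-2, at 777 with its centre 6.5 bp from the summit and at -1402 with its centre 25.5 bp from it. TGATAA, a form bound by GATA-type factors, occurred at 1 of 12, let-2 at -813, which held it on each strand, and at 5.47% of all peaks. Over whole peaks TGATAA was at 3 of 12 (25%), against 12% of all peaks. Within 100 bp of the summit it was at 1 of 12, against 12.3%. Counts of 1 to 3 in 12 are too small to set against these shares. A match is a description of the sequence and not evidence of a bound site.

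Genes that act with these matrix proteins were looked at by the same rule. The list of 26, also chosen with earlier results known, held receptors, other matrix proteins, and enzymes and proteases of the matrix. Of these, 17 had a peak (65.4%), with 31 peaks in all, beside 24.4% of all genes. Of the 11 with an interval of at least 9115 bp, 8 had a peak (72.7%), beside 42.1%.

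Among the receptors 4 of 8 had a peak. The beta integrin gene pat-3 had its strongest at -851, with a pooled signal of 213 and replicates of 102 and 111 (106 ± 6.24, SD, n = 2). The receptor phosphatase gene ptp-3 had a peak in an intron at 6638, with 202 and replicates of 102 and 106 (104 ± 2.99). The alpha integrin gene pat-2, whose product pairs with PAT-3 in muscle, had 78.1 at -993, with 42.8 and 43.1. The syndecan gene sdn-1 had 77.2 at -1847, with 48.1 and 39.3. The alpha integrin gene ina-1, the dystroglycan gene dgn-1 and the discoidin receptor genes ddr-1 and ddr-2 had none.

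Of the other matrix proteins 8 of 10 had a peak, and at 5 of them the strongest exceeded all 12 member peaks. Of all 5560 peaks taken singly 36.3% did so, which is not a like measure, since a gene's strongest peak is picked from several. The peroxidasin gene pxn-1 had 1050 in an intron at 5658, with 499 and 570 (535 ± 50.5, SD, n = 2). The agrin gene agr-1 had 948 at -1684, but this summit was nearer to the start of ssup-72. The SPARC gene ost-1, whose product binds collagen, had 4 peaks, the strongest in an intron at 802 with 517 and replicates of 262 and 252 (257 ± 7.70). The collagen gene col-99, the hemicentin gene him-4, whose strongest peak (283) was nearer to the start of F15G9.5, the papilin gene mig-6, the fibulin gene fbl-1 and the netrin gene unc-6 also had peaks. At unc-6 the strongest peak (148) matched a region in replicate 2 only. The peroxidasin gene pxn-2 and the spondin gene spon-1 had none.

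Of the enzymes and proteases 5 of 8 had a peak. The lysyl hydroxylase gene let-268, which modifies type IV collagen, had 603 in an intron at 6336, with 329 and 272 (300.4 ± 39.9, SD, n = 2), although the start of mtcu-2 was nearer. The gene pdi-2, which encodes a subunit of the collagen prolyl hydroxylase, had 3 peaks, the strongest at -64 with 223 and replicates of 106 and 146 (126 ± 28.3). The ADAMTS protease gene gon-1 had 215 in an intron at 5190, with 107 and 112 (110 ± 3.08). The protease gene zmp-1, whose strongest peak (191) was nearer to the start of EGAP1.5, and the inhibitor gene cri-2 also had peaks, while the prolyl hydroxylase genes dpy-18 and phy-2 and the ADAMTS protease gene mig-17 had none.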

How the data were processed

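ChIP-seq of GFP-tagged RNT-1 in 2 biological replicates was analysed from the lists of regions that the authors deposited on ce11, per the labels: the IDR list, the pooled candidate list and a candidate list for each replicate, each candidate list with 30000 regions. Lists on the older assembly were not used. The signal and the −log10 q values are those the authors deposited. The latter ran from 3.15 to 3.97 at the 12 peaks and from 0.324 to 3.09 at the members' weaker candidates, and only describe them. The sources used here give no aligner, no caller and no scale for the signal. Depth is unknown, and intervals based on it were not made.

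Genes were taken from Ensembl release 115 (WBcel235), whose sequence is that of ce11, and bases from the RefSeq genome of the same assembly; all regions lay within its chromosomes. Coordinates are 1-based. Summits were assigned with Python 3.11.15, from 2 kb upstream of a gene to its 3' end, and classed as coding sequence, UTR, intron or upstream, in that order, over all protein-coding transcripts. A replicate region matched when it contained the summit. Scripts were tested on simulated summits. Members and lists were chosen with earlier results of these data known, so counts are set beside those of all genes and no test was run. Every peak of the 9 members is named, with the genes of nearer starts and, of the related genes, those with the 3 strongest peaks per group and those without a peak; further names were added after values were seen. Alternatives were other upstream reaches, the 2780 strongest peaks, assignment to the nearest start, each replicate alone, other matching rules and other motif windows.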

Additional observations from a re-analysis of the deposited data

How the results depend on the processing

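The counts rest mostly on the reach upstream and on the threshold. With no upstream reach, 3 members had a peak (let-2, unc-52 and lam-1), with 5 peaks, against 10 of the related genes. Of all protein-coding genes 1294 then had a peak (6.48%), and of the 1846 with long intervals 25.8% did. With the 2780 strongest peaks, 2 members had a peak (let-2 with 4, emb-9 with 1). Of these 5 peaks, 2 were in introns and 1 had a RUNX form. Of all genes 3127 had a peak (15.7%), and of those with long intervals 28% did. With 5 kb upstream, 7 members had a peak, with 18 peaks, against 33.4% of all genes and 49.3% of those with long intervals. The cle-1 peak then added lies at -126 from the start of rpb-3. With 1 kb upstream emb-9 lost its peak and 4 members remained, beside 20.1% of all genes and 37.6% of those with long intervals. By nearest start within 2 kb unc-52 lost its peak and 4 members remained, beside 17.1% and 32%. From the 5560 strongest regions of a single replicate, 5 members had a peak with either replicate. Replicate 1 alone gave 24.6% of all genes and 43.9% of those with long intervals, and replicate 2 alone gave 24.1% and 42.8%. The members' peaks numbered 12 to 13, where unc-52 had 3 from replicate 2 alone and lam-1 had 1. The related genes with a peak numbered 16 to 17 from a single replicate, beside 17 in the main setting. They numbered 14 with 1 kb upstream and 19 with 5 kb. By nearest start within 2 kb they numbered 14, and with the 2780 strongest peaks 12. The other matching rules gave 11 or 12 peaks matched in both replicates. In all, 33 alternative values of these results stayed within the tolerance, a factor of 1.5 for counts, so that 18 against 12 peaks still did, and 9 moved. The rank of each member's strongest region was judged by another tolerance, the spread between replicates, with 11 values moved by more than it and 15 not. The tolerances are unlike, so these numbers do not show whether ranks or counts were more stable. With no upstream reach, the strongest region of emb-9 went from rank 2021 to 8758 and that of epi-1 from 2803 to 10493. Leaving let-2 out of the density, an alternative chosen after seeing the data, took it from 85.5 to 46.3 peaks per Mb. The cause was not tested. No paired analysis was possible because there is only 1 group of samples. Unknown depth limits every signal value.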
